A study of Homo sapiens with 9 samples.

Results

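Homologous recombination and the Fanconi anemia pathway are represented here by 33 named DNA repair and checkpoint genes, of the 60230 genes in the deposited tables. The genes were taken by name, and all 33 were found and were expressed highly enough to be tested, among 17307 genes tested. They were measured by poly(A) RNA sequencing in NCI-H358, a human lung adenocarcinoma line, and in NCI-H358-R, a derivative that grows in the presence of sotorasib, a targeted cancer drug. There were 3 libraries of each of 3 states: NCI-H358-R under 250 nM sotorasib, profiled 4 days after dosing (on drug), NCI-H358-R with no sotorasib (off drug), and untreated parental NCI-H358 (parental). The resistant line came from about 2 months of culture in 250 nM sotorasib. The labels describe 1 such line, do not say whether it is a clone or a pool, and give no duration for the drug-free state. Both resistant states therefore share 1 history of selection, which the parental cells lack. The comparison of off-drug with parental cells addresses what differs in the resistant line without the drug, and that of on-drug with off-drug cells addresses what differs within that line under the drug.

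Homologous recombination copies a broken DNA end from an intact sister: the end is cut back to a single strand, BRCA1, PALB2 and BRCA2 prepare that strand for pairing, and the XRCC2 and XRCC3 complexes and the RAD54 translocases help it invade its partner. The Fanconi pathway repairs crosslinks between DNA strands: a core complex with the ubiquitin ligase FANCL and the conjugating enzyme UBE2T attaches ubiquitin to FANCD2 and FANCI, and recombination completes the repair. The kinases ATM and ATR with CHEK1 and CHEK2 hold the cell cycle while this happens. Many of these genes are known to be transcribed most strongly in S phase, under E2F factors.

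Promoter sequences are shown for the genes at both ends of the range of change, EXO1, XRCC2, BRIP1 and FANCB, which had the largest change between on-drug and parental cells in their role groups, and FANCF and UBE2T, which had the smallest of all 33. Each is the RefSeq window on GRCh38.p14 from 250 bases before to 50 bases after the annotated start of transcription, written 5′ to 3′ along the gene. The windows lie at chr1:241847954-241848253 on the plus strand (EXO1), and on the minus strand at chr7:152676092-152676391 (XRCC2), chr17:61863479-61863778 (BRIP1), chrX:14873020-14873319 (FANCB), chr11:22625774-22626073 (FANCF) and chr1:202341887-202342186 (UBE2T). Capitals mark the letters of an E2F-type site (TTTCCCGC, TTTGGCGC, TTTCGCGC or TTTGCCGC) or of a CCAAT box (CCAAT), on either strand, so that a site on the other strand reads in reverse complement.
EXO1: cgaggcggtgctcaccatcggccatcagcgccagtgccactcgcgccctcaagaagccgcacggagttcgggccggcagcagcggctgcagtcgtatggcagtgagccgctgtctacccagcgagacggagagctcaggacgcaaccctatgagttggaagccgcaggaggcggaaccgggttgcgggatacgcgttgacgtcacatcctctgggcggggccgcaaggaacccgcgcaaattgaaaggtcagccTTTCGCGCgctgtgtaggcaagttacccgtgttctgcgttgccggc
XRCC2: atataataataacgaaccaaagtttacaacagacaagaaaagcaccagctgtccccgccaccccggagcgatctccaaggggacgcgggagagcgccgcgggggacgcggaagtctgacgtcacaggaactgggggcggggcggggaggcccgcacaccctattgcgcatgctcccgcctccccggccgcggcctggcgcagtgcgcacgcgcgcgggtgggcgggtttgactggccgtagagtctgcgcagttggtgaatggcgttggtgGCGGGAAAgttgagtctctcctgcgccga
BRIP1: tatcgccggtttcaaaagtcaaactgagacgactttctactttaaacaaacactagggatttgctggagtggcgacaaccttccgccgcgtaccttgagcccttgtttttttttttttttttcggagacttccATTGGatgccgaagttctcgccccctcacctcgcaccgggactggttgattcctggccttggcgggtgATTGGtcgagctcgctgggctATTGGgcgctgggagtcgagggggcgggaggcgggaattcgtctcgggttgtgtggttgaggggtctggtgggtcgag
FANCB: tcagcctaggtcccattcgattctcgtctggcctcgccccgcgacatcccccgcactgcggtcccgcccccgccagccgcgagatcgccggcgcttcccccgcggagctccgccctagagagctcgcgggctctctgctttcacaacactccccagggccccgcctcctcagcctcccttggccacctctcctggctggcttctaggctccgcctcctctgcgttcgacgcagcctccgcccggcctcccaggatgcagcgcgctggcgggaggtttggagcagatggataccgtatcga
FANCF: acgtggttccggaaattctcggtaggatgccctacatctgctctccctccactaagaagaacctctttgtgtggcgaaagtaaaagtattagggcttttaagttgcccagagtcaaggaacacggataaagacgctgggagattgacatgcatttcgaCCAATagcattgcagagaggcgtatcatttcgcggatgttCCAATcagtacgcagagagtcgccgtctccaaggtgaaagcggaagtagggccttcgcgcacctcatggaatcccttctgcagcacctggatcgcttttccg
UBE2T: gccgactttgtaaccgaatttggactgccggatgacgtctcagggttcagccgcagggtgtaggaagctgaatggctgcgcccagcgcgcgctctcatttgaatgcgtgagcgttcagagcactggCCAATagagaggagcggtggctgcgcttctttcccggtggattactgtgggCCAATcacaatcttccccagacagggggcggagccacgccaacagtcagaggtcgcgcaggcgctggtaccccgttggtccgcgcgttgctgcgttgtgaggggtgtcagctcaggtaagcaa

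EXO1 held 1 E2F-type match, TTTCGCGC, whose first base lay at position 5 after the start, and XRCC2 held 1, TTTCCCGC on the other strand, at position 22. BRIP1 held 3 CCAAT matches and no E2F-type match, FANCB held neither, and FANCF and UBE2T held 2 CCAAT matches each. Of the 33 genes, 30 had a window in the table, and 6 of the 30 (20%) held an E2F-type match: XRCC2, FANCA, FANCC, FANCD2, EXO1 and MSH6. The share was 3.31% of all 35116 windows of that length, which were not limited to genes tested here or matched for base composition. CCAAT letters stood in 14 of the 30 (46.7%), against 34.6% of all windows, and the cell cycle homology letters TTTGAA in 4 of the 30 (13.3%), against 15.2%. Both strands were searched, and no word contains another. These are matches of letters and no measure of binding.

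Of the 33 genes, 27 rose and 1 fell in off-drug cells relative to parental cells, 27 rose and 2 fell in on-drug relative to off-drug cells, and 30 rose and none fell in on-drug relative to parental cells, all by edgeR's quasi-likelihood test with Benjamini-Hochberg adjusted p under 0.05. Among all genes tested, 28.4% rose and 26.6% fell off drug against parental, 31.4% rose and 31.2% fell on against off drug, and 33.4% rose and 32.9% fell on drug against parental. Of the 33 genes, called or not, 81.8% were thus called higher in the first comparison, 81.8% in the second and 90.9% in the third. Their median log2 fold changes were 0.80, 0.52 and 1.32 in the same order, where the medians over all genes tested were 0.00, 0.02 and 0.02. Any 2 of the comparisons share 3 libraries, and the 33 genes were chosen with earlier results of these data known. At least 2-fold higher were 12 genes off drug against parental, 6 on against off drug and 20 on drug against parental. Among all 17307 genes tested the numbers were 1297, 2337 and 2317 in the same order. As a share of genes, the number on against off drug lay closest to that of all genes tested. By mean level, 26 of the 33 genes had their highest level on drug, the middle one off drug and the lowest in parental cells. The share of all genes tested with this order was not computed. ATM, CHEK2 and SLX4 were highest off drug and lowest in parental cells, FANCF and UBE2T were highest off drug and lowest on drug, and RAD51D and FANCL were highest on drug and lowest off drug. In bulk RNA, fewer cells that express a gene and less RNA per cell cannot be told apart.

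Library totals were 33394741 to 34727826 estimated counts on drug, 25728092 to 33988889 off drug and 25698500 to 31787105 in parental cells. Levels below are CPM, counts per 1000000 counts of a library scaled by the trimmed mean of M-values (TMM), unless TPM, which is also scaled for transcript length, is named. The 7 epithelial markers summed to 2850 to 3760 TPM on drug, 4100 to 4650 TPM off drug and 3950 to 4690 TPM in parental cells, and none was at 0. The 7 fibroblast markers summed to 77.8 to 98.6 TPM on drug, 5.65 to 7.2 TPM off drug and 7.98 to 10.3 TPM in parental cells, with LUM alone at 59.2 to 80.6 TPM on drug. The 5 endothelial markers summed to 4.75 TPM or less in every library. The 6 leukocyte markers summed to 7.60 to 8.42 TPM on drug, 50.1 to 61.2 TPM off drug and 39.6 to 44.2 TPM in parental cells. Off drug and in parental cells almost all of that sum was CD68. PTPRC and CD3E were at or near 0 in the on-drug libraries. The part of these differences in the values of the repair genes was not tested.

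**Figure D1:**
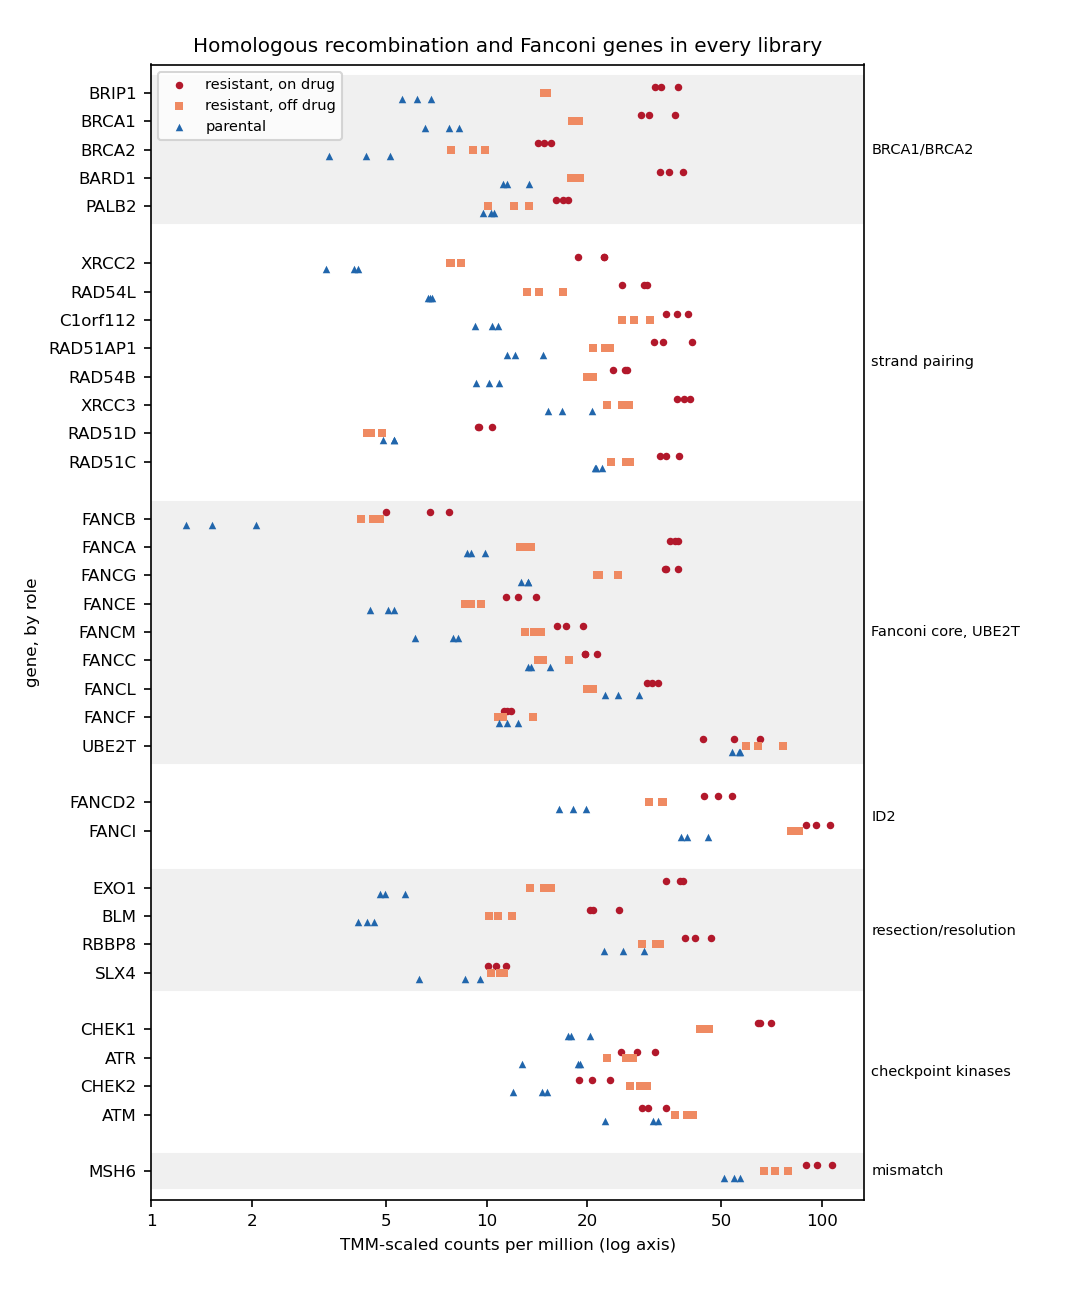
Level of each of the 33 genes in each of the 9 libraries, in TMM-scaled CPM on a log axis, by role group (grey and white bands), with on-drug libraries as circles, off-drug libraries as squares and parental libraries as triangles. For EXO1 the 3 on-drug libraries sit between 34.2 and 38.5, all above the off-drug libraries at 13.5 to 15.6, whereas the 3 states of FANCF overlap.

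Of the 5 genes around BRCA1 and BRCA2, 4 rose off drug against parental, and all 5 rose on against off drug and on drug against parental. BRCA1, a ubiquitin ligase that promotes end resection, had 36.5, 28.8 and 30.5 CPM on drug, 18, 18.9 and 18.1 CPM off drug, and 7.72, 8.29 and 6.55 CPM in parental cells. BRIP1, a helicase that binds BRCA1 and is also known as FANCJ, had 37.2, 33.2 and 31.8 CPM on drug, 14.8, 15.1 and 15.0 CPM off drug, and 6.84, 6.21 and 5.58 CPM in parental cells. BARD1, the obligate partner of BRCA1 in the ligase, had 38.6, 34.9 and 32.9 CPM on drug, 17.8, 19.0 and 18.2 CPM off drug, and 11.2, 13.4 and 11.5 CPM in parental cells. No library of one state overlapped another state for any of these genes. In off-drug against parental cells, BRCA1 rose by a log2 fold change of 1.28 ± 0.12 (SE; edgeR adjusted p = 1.6e-07), BRIP1 by 1.26 ± 0.11 (adjusted p = 7.4e-08) and BARD1 by 0.61 ± 0.10 (adjusted p = 8.8e-05). In on-drug against off-drug cells the log2 fold changes were 0.80 ± 0.11 for BRCA1 (adjusted p = 6.6e-06), 1.19 ± 0.10 for BRIP1 (adjusted p = 2.2e-08) and 0.95 ± 0.09 for BARD1 (adjusted p = 2.9e-07). Against parental cells, on-drug BRIP1 was 5.47-fold, BRCA1 4.25-fold and BARD1 2.95-fold higher.

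BRCA2, which acts on resected single-stranded DNA, had the lowest mean TPM of the 33 genes (1.16 over all 9 libraries) and was 2.07-fold higher off drug against parental, 1.66-fold higher on against off drug and 3.43-fold higher on drug against parental. The first of these had an edgeR adjusted p of 1.8e-05 but was not called by limma on log2(TPM + 1) (adjusted p = 0.086), on log2(TPM + 0.1) (adjusted p = 0.058) or on log2(TPM + 1) with no filter (adjusted p = 0.14). PALB2, which bridges BRCA1 and BRCA2, was the only one of these 5 genes not called between off-drug and parental cells, where its log2 fold change was 0.22 ± 0.11 (edgeR adjusted p = 0.11). Its 3 off-drug libraries held 10.1, 13.4 and 12.1 CPM and overlapped the parental ones at 9.75, 10.3 and 10.5 CPM. Without the first off-drug library it was called, at 0.32 (edgeR adjusted p = 0.028). PALB2 rose on drug against off drug, by 0.50 ± 0.11 (edgeR adjusted p = 0.00068).

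All 8 genes of the strand-pairing group rose on drug, against off-drug and against parental cells, and 7 of the 8 rose off drug against parental. XRCC2, a subunit of a complex with RAD51D, had 22.4, 22.4 and 18.8 CPM on drug, 8.37, 7.86 and 7.77 CPM off drug, and 4.02, 4.13 and 3.31 CPM in parental cells. C1orf112, a partner of the ATPase FIGNL1, had 37.0, 39.8 and 34.2 CPM on drug, 27.6, 25.3 and 30.8 CPM off drug, and 10.8, 10.4 and 9.23 CPM in parental cells. RAD51C, a subunit shared by the XRCC2 and XRCC3 complexes, had 33, 37.6 and 34.2 CPM on drug, 26.1, 23.5 and 26.8 CPM off drug, and 21.0, 22.1 and 21.2 CPM in parental cells. The states did not overlap for any of the 3, but they were spaced differently. For C1orf112 the step between off-drug and parental cells was 1.46 ± 0.10 on the log2 scale (edgeR adjusted p = 1.3e-08) and that between on-drug and off-drug cells 0.41 ± 0.10 (adjusted p = 0.0017). For XRCC2 these were 1.06 ± 0.13 (edgeR adjusted p = 3.5e-06) and 1.41 ± 0.11 (adjusted p = 1.9e-08). The difference between the steps was not tested. RAD51C changed by 0.25 ± 0.09 off drug against parental (edgeR adjusted p = 0.023), a call lost without any one of 3 libraries (the first parental, the first off-drug or the third off-drug library), with adjusted p = 0.071 to 0.095. The call was also lost with upper-quartile factors (0.16, edgeR adjusted p = 0.14) and with no filter on low counts (0.25, edgeR adjusted p = 0.063).

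RAD51D, from the same complex as XRCC2, was not called between off-drug and parental cells and was higher on drug. It had 10.4, 9.50 and 9.42 CPM on drug, 4.52, 4.87 and 4.4 CPM off drug, and 5.30, 5.29 and 4.91 CPM in parental cells. The off-drug libraries lay just below the parental ones and the on-drug libraries far above both. Its log2 fold change was -0.17 ± 0.13 off drug against parental (edgeR adjusted p = 0.26) and 1.09 ± 0.12 on against off drug (adjusted p = 8.7e-07). The other 4 genes rose in all 3 comparisons. On drug against parental, RAD54L, a translocase on double-stranded DNA, was 4.18-fold higher, RAD51AP1, which promotes strand pairing, 2.76-fold higher, RAD54B, a relative of RAD54L, 2.49-fold higher and XRCC3, the partner of RAD51C in its other complex, 2.21-fold higher. In the GENCODE 29 annotation, 76.7% of the exon bases of XRCC3 lie on the opposite strand from exons of KLC1, 25.1% of those of RAD54L opposite LRRC41 and 21.7% of those of C1orf112 opposite SCYL3, and 59.1% of those of RAD54B are shared with FSBP on the same strand. Since no source used here names the strand setting of the counting, the levels of the first 3 are uncertain to that extent, and the level of RAD54B is uncertain under any strand setting.

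**Figure D2:**
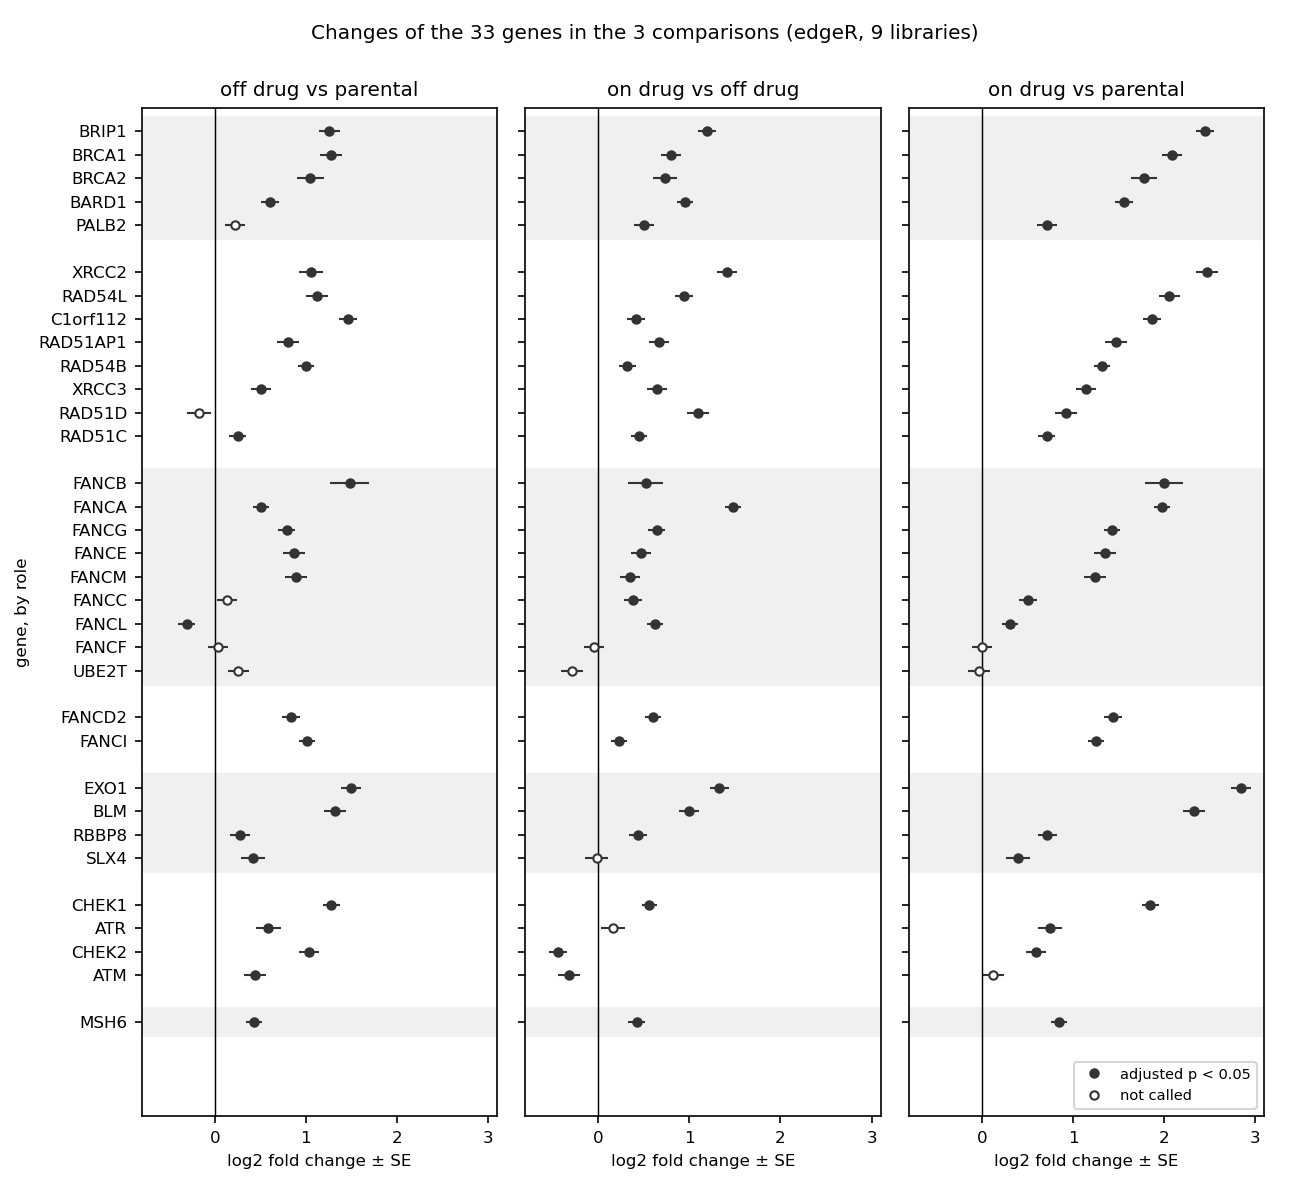
Log2 fold change with its standard error for each of the 33 genes in the 3 comparisons (panels), from 1 edgeR fit over 9 libraries. Filled points had an adjusted p under 0.05 and open points were not called. On drug against parental, 30 of the 33 points lie to the right of 0 and are filled.

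Among the 9 genes of the Fanconi core complex and its conjugating enzyme, 5 rose and 1 fell off drug against parental, 7 rose on against off drug and 7 rose on drug against parental. FANCA, a large subunit of the core, had 35.2, 36.5 and 37.3 CPM on drug, 13.1, 13.6 and 12.6 CPM off drug, and 8.77, 9.90 and 8.97 CPM in parental cells. FANCB, which holds FANCL in the catalytic module, had 6.77, 7.75 and 5.02 CPM on drug, 4.8, 4.22 and 4.59 CPM off drug, and 2.06, 1.52 and 1.27 CPM in parental cells. FANCA had the largest change of all 33 genes between on-drug and off-drug cells, 1.48 ± 0.09 (edgeR adjusted p = 5.4e-10). FANCB rose by 1.48 ± 0.21 off drug against parental (edgeR adjusted p = 2.5e-05) and by 0.52 ± 0.19 on against off drug (adjusted p = 0.023). The second of these calls was lost without off-drug library 2 or 3 or on-drug library 1 or 2, with adjusted p = 0.050 to 0.11. By limma it was also lost on log2(TPM + 0.1) (adjusted p = 0.069) and on log2(TPM + 1) with no filter (adjusted p = 0.082). FANCE, FANCG and FANCM, an adaptor to FANCD2, a partner of FANCA and the translocase that anchors the core to DNA, rose in all 3 comparisons and were 2.54-fold, 2.69-fold and 2.37-fold higher on drug against parental. The call of FANCM on against off drug, 0.35 ± 0.11 (edgeR adjusted p = 0.013), was lost without the second off-drug library (adjusted p = 0.054) or the second on-drug library (adjusted p = 0.055). FANCC, which binds FANCE and FANCF, was called only in the comparisons with on-drug cells, at 0.38 ± 0.10 against off drug (edgeR adjusted p = 0.0044) and 0.51 ± 0.10 against parental (adjusted p = 0.00039). The first of these FANCC calls was lost by limma on log2(TPM + 1) with no filter (0.39, adjusted p = 0.054). Of the exon bases of FANCA, 23.6% lie opposite exons of ZNF276.

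FANCL, the ubiquitin ligase of the pathway, was called in opposite directions in 2 comparisons. It had 31.1, 32.5 and 30.1 CPM on drug, 20.3, 20.8 and 19.9 CPM off drug, and 24.6, 22.5 and 28.4 CPM in parental cells, with no overlap between states. It fell off drug against parental, by 0.31 on the log2 scale (SE 0.09; edgeR adjusted p = 0.011), rose by 0.62 ± 0.09 on against off drug (adjusted p = 2.7e-05) and rose by 0.31 ± 0.09 on drug against parental (adjusted p = 0.0075). The decrease was -0.21 (edgeR adjusted p = 0.052) without the third parental library, and the last increase was 0.23 (adjusted p = 0.051) without the second. By limma the decrease was -0.23 and was not called on log2(TPM + 1) or log2(TPM + 0.1) (adjusted p = 0.056 each). The same held on log2(TPM + 1) with no filter (-0.23, limma adjusted p = 0.068). Exons of VRK2 lie opposite 18.7% of its exon bases.

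UBE2T and FANCF were not called in any comparison of the fit over 9 libraries, although UBE2T was under some alternatives. UBE2T, the conjugating enzyme that works with FANCL, had the highest mean TPM of the 33 genes, 130 over all 9 libraries, followed by RAD51C at 52.4 and FANCI at 36.7 TPM. It had 44.3, 65.4 and 54.8 CPM on drug, 64.5, 59.4 and 76.4 CPM off drug, and 56.8, 54.1 and 56.9 CPM in parental cells. The on-drug libraries spread across both other states, and the off-drug libraries lay above the parental ones. Its log2 fold changes were 0.26 ± 0.12 off drug against parental (edgeR adjusted p = 0.087), -0.29 ± 0.12 on against off drug (adjusted p = 0.051) and -0.03 ± 0.12 on drug against parental (adjusted p = 0.85). The first of these was called with no filter on low counts (0.25, edgeR adjusted p = 0.031), with only the 2 states in the fit (0.24, edgeR adjusted p = 0.035) and by limma on log2(TPM + 1) (0.33, adjusted p = 0.013), on log2(TPM + 0.1) (0.34, adjusted p = 0.013) and on log2(TPM + 1) with no filter (0.33, adjusted p = 0.047). Without the second on-drug library the change on against off drug was -0.43 (edgeR adjusted p = 0.0050), without the second off-drug library -0.36 (adjusted p = 0.027), and without the third parental library -0.29 (adjusted p = 0.045). FANCF, an adaptor within the core, had 11.8, 11.5 and 11.3 CPM on drug, 11.2, 13.8 and 10.8 CPM off drug, and 10.9, 11.5 and 12.4 CPM in parental cells, and its largest log2 fold change in size was -0.05 ± 0.11 (edgeR adjusted p = 0.73).

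Both genes of the ID2 complex, the pair that the core marks with ubiquitin, rose in all 3 comparisons. FANCI had 106, 96.2 and 89.4 CPM on drug, 85.2, 82.3 and 80.8 CPM off drug, and 45.6, 37.9 and 39.5 CPM in parental cells. FANCD2 had 54.0, 49.0 and 44.6 CPM on drug, 30.5, 33.6 and 33.3 CPM off drug, and 19.8, 18.1 and 16.5 CPM in parental cells. The states did not overlap for either gene. Off drug against parental, FANCI rose by 1.01 ± 0.09 (edgeR adjusted p = 1.6e-07) and FANCD2 by 0.84 ± 0.10 (adjusted p = 2.9e-06). On against off drug, FANCD2 rose by 0.60 ± 0.09 (edgeR adjusted p = 4.2e-05) and FANCI by 0.23 ± 0.09 (adjusted p = 0.031). The FANCI call on against off drug was lost without any one off-drug library (edgeR adjusted p = 0.060 to 0.098) and without the first on-drug library (adjusted p = 0.15). By limma on log2(TPM + 1) with no filter it was also lost (adjusted p = 0.11). The FANCD2 call off drug against parental was lost in that setting too (0.51, limma adjusted p = 0.061).

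EXO1, an exonuclease that lengthens the resected strand, had the largest change of the 33 genes in the comparisons with parental cells. It had 38.5, 37.8 and 34.2 CPM on drug, 13.5, 15.6 and 14.8 CPM off drug, and 4.97, 5.73 and 4.8 CPM in parental cells, and the 3 states lay far apart. The log2 fold change was 1.5 ± 0.11 off drug against parental (edgeR adjusted p = 1.4e-08), 1.33 ± 0.10 on against off drug (adjusted p = 6e-09) and 2.84 ± 0.11 on drug against parental (adjusted p = 2.5e-12), the last a 7.14-fold difference. BLM, a helicase that acts in resection and dissolves joined molecules, was 2.50-fold higher off drug against parental, 2.00-fold higher on against off drug and 5.02-fold higher on drug against parental. RBBP8, also known as CtIP, which starts resection, had 41.9, 46.7 and 39.0 CPM on drug, 32.8, 29 and 32 CPM off drug, and 29.4, 22.4 and 25.6 CPM in parental cells. Its off-drug and parental libraries overlapped, and its log2 fold change of 0.28 ± 0.11 between them (edgeR adjusted p = 0.036) was not called without parental library 2 or 3, off-drug library 1 or 3 or on-drug library 1 (adjusted p = 0.054 to 0.18). That call was also lost with upper-quartile factors (edgeR adjusted p = 0.16), with library size only (adjusted p = 0.062) and with a minimum count of 50 (adjusted p = 0.061). By limma on log2 TPM it was lost too (adjusted p = 0.058 to 0.13). RBBP8 rose by 0.44 ± 0.10 on against off drug (edgeR adjusted p = 0.0015). SLX4, a scaffold for nucleases that cut joined molecules, rose off drug against parental by 0.42 ± 0.13 (edgeR adjusted p = 0.016) and had a log2 fold change of -0.02 ± 0.13 on against off drug (adjusted p = 0.90). The SLX4 call off drug against parental was lost without the third parental library (edgeR adjusted p = 0.063) or the second off-drug library (adjusted p = 0.056), and its call on drug against parental, 0.40 ± 0.13 (adjusted p = 0.015), without the third parental (adjusted p = 0.069) or the first on-drug library (adjusted p = 0.059). By limma the first of these calls was also lost, on log2(TPM + 1) and log2(TPM + 0.1) (adjusted p = 0.12 each) and on log2(TPM + 1) with no filter (adjusted p = 0.19).

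All 4 checkpoint kinases rose off drug against parental, but on against off drug 1 rose, 2 fell and 1 was not called. CHEK1, the effector kinase of ATR, had 70.4, 65.2 and 64.6 CPM on drug, 45.9, 43.4 and 46.0 CPM off drug, and 17.8, 17.5 and 20.4 CPM in parental cells. CHEK2, the effector kinase of ATM, had 18.9, 23.4 and 20.7 CPM on drug, 26.7, 28.7 and 30.2 CPM off drug, and 14.6, 12 and 15.1 CPM in parental cells. ATM, which is activated by double-strand breaks, had 34.4, 30.3 and 29.1 CPM on drug, 36.6, 41.2 and 39.5 CPM off drug, and 32.5, 31.3 and 22.6 CPM in parental cells. For CHEK1 the on-drug libraries lay highest, for CHEK2 and ATM the off-drug libraries did, and only the on-drug and parental libraries of ATM overlapped. CHEK1 rose by 1.28 ± 0.09 off drug against parental (edgeR adjusted p = 6.6e-09) and by 0.56 ± 0.08 on against off drug (adjusted p = 1.9e-05). CHEK2 rose by 1.04 ± 0.11 off drug against parental (edgeR adjusted p = 9e-07) and fell by 0.44 on the log2 scale on against off drug (SE 0.10; adjusted p = 0.0017). ATM rose by 0.44 ± 0.12 off drug against parental (edgeR adjusted p = 0.0050) and fell by 0.32 on against off drug (SE 0.12; adjusted p = 0.025).

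Both decreases on against off drug lost their call with another scaling: with library size alone CHEK2 had a log2 fold change of -0.19 (edgeR adjusted p = 0.12) and ATM -0.07 (adjusted p = 0.65). By limma on log2(TPM + 1), which differs from that fit in more than scaling, neither was called: CHEK2 had -0.14 (adjusted p = 0.32) and ATM -0.43 (adjusted p = 0.18). That of ATM was also lost without any one of 4 libraries (library 2 or 3 of either resistant state), with edgeR adjusted p = 0.058 to 0.10. The increase of ATM off drug against parental was not called by limma on log2(TPM + 1) with no filter (0.78, adjusted p = 0.14). ATR, which responds to single-stranded DNA at stalled forks, was 1.5-fold higher off drug against parental and had a log2 fold change of 0.16 ± 0.13 on against off drug (edgeR adjusted p = 0.31). That change of ATR was called with library size alone, at 0.41 (edgeR adjusted p = 0.018), and by limma on log2(TPM + 1), at 0.44 (adjusted p = 0.0065). On drug against parental, ATM was not called, with a log2 fold change of 0.12 ± 0.12 (edgeR adjusted p = 0.39), and CHEK1 was 3.6-fold, ATR 1.68-fold and CHEK2 1.51-fold higher.

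MSH6, which recognizes mismatched bases, rose in all 3 comparisons. It had 107, 89.7 and 96.9 CPM on drug, 72.4, 79.5 and 67.4 CPM off drug, and 54.7, 57.1 and 51.0 CPM in parental cells, with no overlap. Its log2 fold change was 0.43 ± 0.09 off drug against parental (edgeR adjusted p = 0.00085) and 0.42 ± 0.09 on against off drug (adjusted p = 0.00069). Exons of FBXO11 lie opposite 16.2% of the exon bases of MSH6.

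On the per-length scale, summed levels were highest on drug and lowest in parental cells, while the order of the states differed from that in CPM for some single genes: FANCF had a mean of 5.13 TPM on drug, 4.65 TPM off drug and 4.19 TPM in parental cells, and SLX4 had 1.53, 1.31 and 0.892 TPM in those states. Summed over the 33 genes, TPM was 694 to 749 on drug, 507 to 518 off drug and 325 to 353 in parental cells. The BRCA1 group summed to 37.9 to 44.9 TPM on drug, 17.3 to 20.1 TPM off drug and 10.6 to 11.3 TPM in parental cells. The checkpoint kinases summed to 75.9 to 84.3 TPM on drug, 65.7 to 73.1 TPM off drug and 25.9 to 36.5 TPM in parental cells. By mean TPM, EXO1 was 8.66-fold higher on drug against parental, where the count-based fold was 7.14. Between on-drug and parental cells the TPM ratio exceeded the count-based fold change for every one of the 33 genes, by 0.01 to 0.54 on the log2 scale, and over all genes the median change by limma on log2(TPM + 1) was 0.27, against 0.02 in the count fit.

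**Figure D3:**
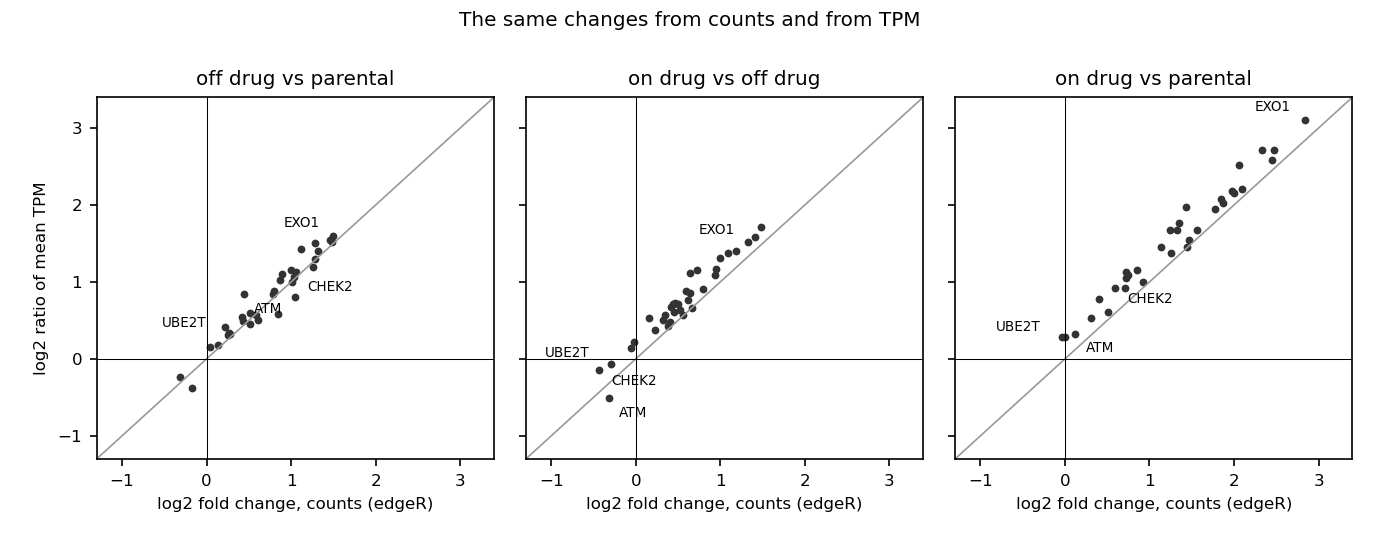
Log2 ratio of mean TPM against the count-based log2 fold change for the 33 genes (points) in the 3 comparisons (panels), with the line of equality in grey. EXO1 lies farthest to the upper right on drug against parental, and ATM, CHEK2 and UBE2T lie at or below 0 on both scales on against off drug.

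Other genes of the same processes moved less uniformly. Of 46 further homologous recombination and Fanconi genes, 20 rose and 9 fell off drug against parental (median log2 fold change 0.15), 26 rose and 10 fell on against off drug (median 0.35) and 25 rose and 6 fell on drug against parental (median 0.44). MCM8, a helicase of recombination, rose by 1.62 ± 0.08 (edgeR adjusted p = 2.4e-10) and POLQ, the polymerase of an alternative end joining route, by 1.57 ± 0.20 (adjusted p = 5.5e-06) off drug against parental. RMI2, a partner of BLM, rose by 1.56 ± 0.12 (edgeR adjusted p = 9e-09) on against off drug. Between on-drug and parental cells the log2 fold change of POLQ was 2.11 ± 0.19 (edgeR adjusted p = 7.4e-08). The 3 genes of the MRE11 complex, which senses broken ends and activates ATM, were picked out after their values were seen. MRE11 rose on against off drug by 0.34 ± 0.09 (edgeR adjusted p = 0.0028), whereas RAD50 fell by 0.38 (SE 0.08; adjusted p = 0.00051) and NBN fell by 0.31 (SE 0.08; adjusted p = 0.0042) on the log2 scale.

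Of 20 other checkpoint genes, 13 rose and 4 fell off drug against parental (median 0.47), 12 rose and 6 fell on against off drug (median 0.42) and 13 rose and 3 fell on drug against parental (median 0.64). CLSPN, the adaptor through which ATR activates CHEK1, rose by 1.82 ± 0.16 (edgeR adjusted p = 1e-07) off drug against parental, by 2.32 ± 0.13 (adjusted p = 2.9e-10) on against off drug and by 4.15 ± 0.15 (adjusted p = 1.9e-12) on drug against parental. MDC1, a scaffold at breaks, rose by 1.42 ± 0.13 (edgeR adjusted p = 1.3e-07) off drug against parental, and PKMYT1, a kinase that restrains CDK1, by 1.64 ± 0.11 (adjusted p = 2e-09) on against off drug.

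The other repair routes gave mixed counts. Of 18 end joining genes, 6 rose and 3 fell off drug against parental (median 0.13), 2 rose and 6 fell on against off drug (median 0.03) and 8 rose and 5 fell on drug against parental (median 0.01). PRKDC, the catalytic kinase of end joining, rose by 1.82 ± 0.14 (edgeR adjusted p = 3e-08) and POLM, a gap-filling polymerase, fell by 1.08 (SE 0.13; adjusted p = 3.4e-06) on the log2 scale off drug against parental, and on against off drug SHLD3, a shieldin subunit, rose by 1.94 ± 0.25 (adjusted p = 6e-06) and XRCC4, a cofactor of the ligase LIG4, fell by 0.76 (SE 0.12; adjusted p = 5.4e-05). Of 6 other mismatch repair genes, 4 rose off drug against parental (median 0.29), 2 rose and 3 fell on against off drug (median -0.19) and 2 rose and 1 fell on drug against parental (median 0.14). Of 21 base excision and single-strand break genes, 10 rose and 6 fell off drug against parental (median 0.14), 8 rose and 7 fell on against off drug (median -0.13) and 10 rose and 8 fell on drug against parental (median 0.18). UNG, which removes uracil from DNA, rose by 1.59 ± 0.08 (edgeR adjusted p = 4.5e-11) and NTHL1, a glycosylase for oxidized bases, fell by 1.02 (SE 0.09; adjusted p = 9.2e-08) on against off drug. Of 19 nucleotide excision repair genes, 7 rose and 4 fell off drug against parental (median 0.05), 5 rose and 8 fell on against off drug (median 0.00) and 7 rose and 4 fell on drug against parental (median 0.11). ERCC1, part of a nuclease that also cuts at crosslinks, fell by 0.89 (SE 0.10; edgeR adjusted p = 7.9e-07) on against off drug.

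**Figure D4:**
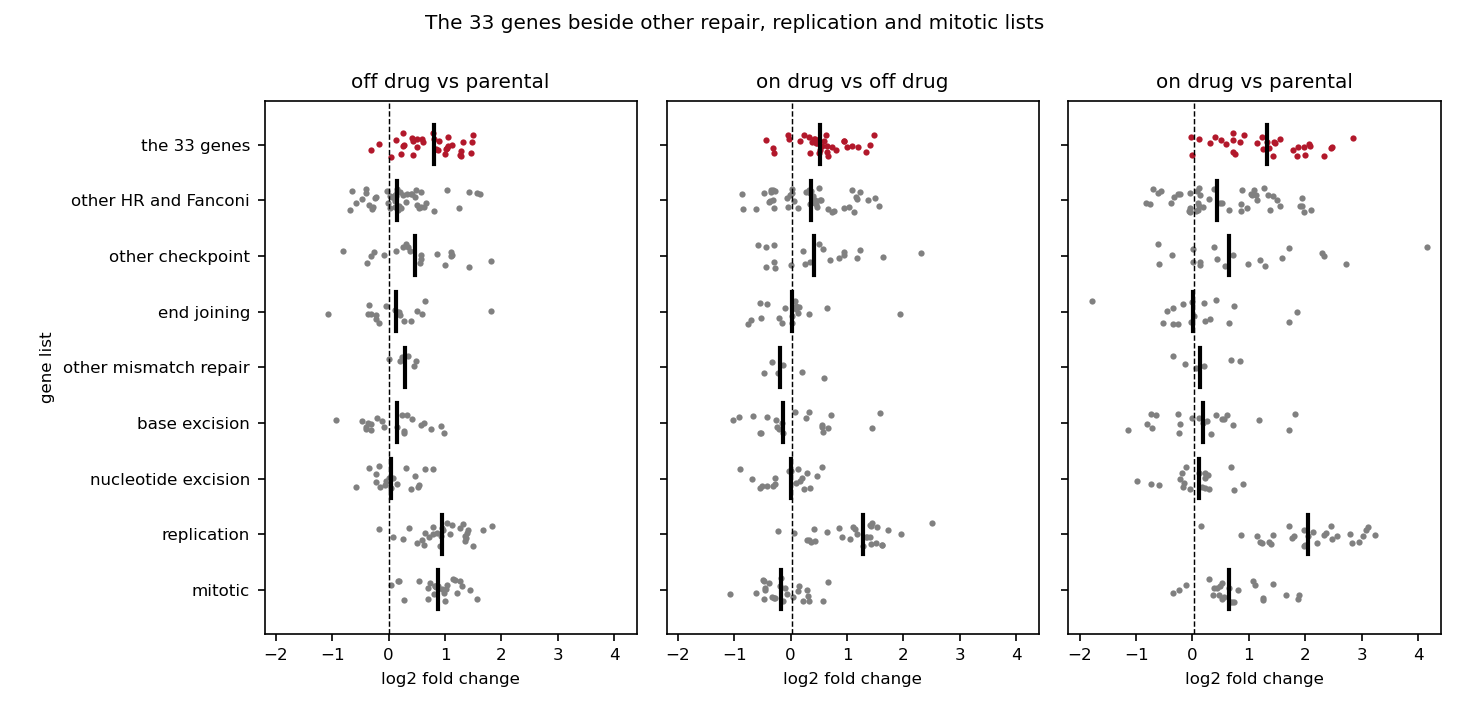
Log2 fold changes of single genes (points) in the 33 genes (red) and in 8 other lists (grey), with each list's median as a black bar and the median of all genes tested as a dashed line, in the 3 comparisons (panels). On against off drug the replication list has its median at 1.29, the 33 genes at 0.52 and the mitotic list at -0.17.

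Genes of DNA replication and of mitosis were set beside the 33 genes as measures of cycling. Of 29 replication licensing and fork genes, 26 rose off drug against parental (median 0.94), 27 rose on against off drug (median 1.29) and 28 rose on drug against parental (median 2.05), and none fell. Examples were MCM10, a replication factor, at 1.83 ± 0.11 off drug against parental (edgeR adjusted p = 2.8e-09), GINS2, a subunit of the replicative helicase, at 2.50 ± 0.14 on against off drug (adjusted p = 3.7e-10) and CDC45, another part of that helicase, at 3.12 ± 0.10 on drug against parental (adjusted p = 4.5e-13). Of 25 mitotic genes, 22 rose and none fell off drug against parental (median 0.88), 4 rose and 11 fell on against off drug (median -0.17) and 22 rose and 2 fell on drug against parental (median 0.64). BUB1, a spindle checkpoint kinase, fell by 1.08 (SE 0.10; edgeR adjusted p = 9.5e-08) and KIF11, a spindle motor, rose by 0.66 ± 0.08 (adjusted p = 5e-06) on against off drug. MKI67, the gene of the proliferation marker Ki-67, had a mean of 87.6 CPM on drug, 70.2 CPM off drug and 23.9 CPM in parental cells, with a log2 fold change of 1.56 ± 0.17 off drug against parental (edgeR adjusted p = 9.9e-07), 0.32 ± 0.16 on against off drug (adjusted p = 0.088) and 1.87 ± 0.17 on drug against parental (adjusted p = 5.9e-08). The part of cycling in the values of the repair genes was not tested.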

How the data were processed

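Poly(A) RNA of 9 libraries, 3 of each state, was sequenced as paired reads. The submitters' processing notes name the build GRCh38.p13 and the tools Salmon 0.14.1, bcl2fastq 2.17 and FastQC 0.12.1. The annotation release is not given in the sources used, nor is the strand setting. The authors deposited estimated counts per gene, not scaled for depth, and TPM values, scaled for length and depth.

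Estimated counts were rounded, since plain counts had been assumed, and genes were kept by filterByExpr (minimum count 10, minimum total 15). One edgeR 4.0.16 quasi-likelihood fit (R 4.3.3) with TMM factors covered 17307 genes and all 9 libraries, with 6 residual degrees of freedom, and p-values were adjusted by Benjamini-Hochberg over all genes tested. SE is the absolute log2 fold change divided by the square root of F. The labels call the libraries biological replicates without naming separate cultures, so the p-values reflect only how far these libraries differed within a state, and that spread may be technical. No pair of libraries agreed within sampling noise (lowest chi-square per degree of freedom 5.11). A count of 3, 0.0864 to 0.117 CPM by library, was taken as the floor, and all 33 genes lay above it; it covers counting error only. On simulated data, 2-fold changes were recovered in 86.6% of cases off drug against parental, 82.1% on against off drug and 89.6% on drug against parental. The simulation gave every gene the same spread and changed few genes, so these rates need not hold for the 33 genes.

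Alternatives were other scalings, filters, DESeq2 1.42.0, limma 3.58.1 on log2 TPM, a replicate block and leaving out each library. Members and lists were chosen with earlier results of these data known. Values in every library are given, by role group, for the called gene of largest change in each comparison (average log2 CPM of at least 1), for genes called in opposite directions and for the gene of highest mean TPM; RAD51D, PALB2 and FANCF were added after their values were seen. From each other list, up to 2 called genes of largest change per comparison are named, and MKI67 throughout; some genes that this rule picks are not reported here. Gene positions and exon overlaps are from GENCODE 29, and promoters from RefSeq on GRCh38.p14.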

Additional observations from a re-analysis of the deposited data

How the results depend on the processing

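The number of the 33 genes that rose stayed within 1.5 times its value in the report under every alternative: 23 to 28 off drug against parental, 24 to 28 on against off drug and 29 to 31 on drug against parental. The number that fell is small and moved. Off drug against parental it was 1 in the TMM fit of edgeR and 0 by limma on log2(TPM + 1), on log2(TPM + 0.1) and on log2(TPM + 1) with no filter, and 0 to 1 when each library was left out (0 without the third parental library). On against off drug it was 2 in the TMM fit of edgeR, 1 with upper-quartile factors, 0 with library size only and 0 in the 3 limma settings, and 1 to 3 when each library was left out (1 without off-drug library 3 or on-drug library 3, 3 without the third parental library). UBE2T on drug against parental, -0.03 in the TMM fit of edgeR, was 0.26 (adjusted p = 0.030) by limma on log2(TPM + 1) and 0.27 (adjusted p = 0.031) on log2(TPM + 0.1); the cause was not tested. Library size alone moved the median of all genes to 0.27 on against off drug and 0.24 on drug against parental, where the medians of the 33 genes were 0.78 and 1.54; the share of calls on the higher side on against off drug was 50.1% in the TMM fit of edgeR, 68.5% with library size only, 60.0% with upper-quartile factors and 64.0% by limma on log2(TPM + 1). In the comparison of on-drug with parental cells that share was 50.4% in the TMM fit of edgeR, 64.3% with library size only and 69.7% by limma, and off drug against parental 51.6% in the TMM fit of edgeR, 43.4% with upper-quartile factors, 48.5% with library size only and 64.6% by limma.

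Pairing by replicate number is not stated in the labels. Deviations of same-numbered libraries from their group means correlated at -0.034 to 0.135, with 1 of 9 pairs over 0.1. Such correlations cannot show whether cultures were handled in pairs. With a replicate block, 27 rose and 1 fell off drug against parental, 27 rose and 3 fell on against off drug, and 30 rose and 0 fell on drug against parental; UBE2T was the added decrease (-0.29, adjusted p = 0.048). Simulated data of this depth gave every gene the same spread and changed few genes. There, 1.5-fold changes were recovered in 73.1% of cases off drug against parental, 64.2% on against off drug and 77.6% on drug against parental. These rates need not hold for the repair genes, and smaller changes may be missed.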

Other observations

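The ratio of estimated count to TPM reflects the transcript length that the quantification assigned to a gene, and for some of the repair genes it differed between states. Given relative to the gene's geometric mean over the 9 libraries and to the median gene of each library, its log2 ratio for ATM was -0.31 off drug against parental and 0.38 on against off drug, with libraries at 1.15, 0.94 and 1.25 on drug, 0.87, 0.65 and 1.10 off drug, and 0.86, 1.01 and 1.36 in parental cells, so that the states overlapped. Off drug against parental it was 0.39 for FANCD2 and 0.38 for BRCA2. For FANCD2 the off-drug libraries had 1.36, 1.14 and 0.88 times that mean and the parental libraries 1.01, 0.92 and 0.64. These states overlapped. On against off drug the log2 ratio was -0.24 for FANCG. Its on-drug libraries, at 0.89, 0.92 and 0.9, lay below its off-drug libraries at 1.12, 1.05 and 1.03. For BRCA2 the off-drug libraries had 1.14, 1.16 and 1.11 times that mean, and the parental libraries 1.07, 1.10 and 0.56, so that the third parental library stood apart. Over the 33 genes the median of this log2 ratio was 0.04 off drug against parental, 0.02 on against off drug and 0.06 on drug against parental. It was below 0 for 8, 12 and 7 of the 33 genes in the same order. Over 16487 genes the signed median was 0.0 in each comparison, and the median absolute value was 0.05, 0.07 and 0.09. These genes were picked out after their values were seen, and no test was made.

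Annotated pseudogene copies of 5 of the 33 genes had a mean estimated count of 0 to 0.111, against 638 for BRCA1 and 651 for CHEK2.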
